A study of Mus musculus with 12 samples.

Results

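The miRNAs described here come from the Mir17-92 cluster, a mouse locus at which 6 miRNA hairpins lie next to each other on chromosome 14. They were chosen by name: of the 7 mature miRNAs listed for the cluster, mmu-miR-17-5p, mmu-miR-19b-3p, mmu-miR-20a-5p and mmu-miR-92a-3p have an entry among the 637 entries of the counts files. The listed mmu-miR-17-3p, mmu-miR-18a-5p and mmu-miR-19a-3p have no entry, and their levels were not analysed here. Small RNA of exosomes was sequenced from mouse ovarian granulosa cells, the cells that surround and nourish the oocyte, in 12 libraries, 3 in each of 4 groups. All cells were acclimated for 24 h in medium free of exosomes and then cultured for 48 h. CON cells were untreated, and FAC cells received 100 μM ferric citrate, an iron salt used to model iron overload. In the DFO group, 100 μM deferoxamine mesylate, which chelates iron, was given together with ferric citrate at 100 μM, and in the VE group 200 μM VITE (vitamin E), an antioxidant of lipid membranes, was given together with the same dose of iron salt. The DFO and VE groups thus received the same iron dose as the FAC group, and no group received either agent without iron. The methods of the study name female Kunming mice. The same section describes granulosa cells isolated from ovaries of mice injected with pregnant horse serum gonadotropin. This is not restated for the cells of these libraries, and the labels do not give an age. Nothing in the labels says whether the 3 replicates of a group came from separate cultures, so that p-values measure the spread between these libraries only.

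The members of the cluster are cut from 1 primary transcript, the host gene Mir17hg, by the nucleases Drosha and Dicer. The seed, the bases at the 5′ end with which a miRNA pairs to its targets, sorts them into the miR-17, miR-18, miR-19 and miR-92 families. The cluster is known for promoting proliferation and survival, with the pro-apoptotic Bcl2l11 (Bim) among its targets. Related clusters, which arose by duplication, are Mir106a-363 on the X chromosome and Mir106b-25 on chromosome 5, the latter within an intron of Mcm7.

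By name, the sequences of all 7 listed members were found in RefSeq (GRCm38.p6), where the 6 hairpins of chromosome 14 span 836 bp of the plus strand from 115043671 to 115044506. In the GENCODE annotation of the same build they lie within the long non-coding gene Mir17hg (115042879 to 115046727). The submitters' processing notes name mm9, an older build, and the counts files hold no coordinates, so the positions are those of the reference only. The mature sequences of the 4 members with an entry are shown because they differ by few bases from their relatives, which bears on how far reads can be told apart. Capitals mark the seed, bases 2 to 8.
mmu-miR-17-5p: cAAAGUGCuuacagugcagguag
mmu-miR-20a-5p: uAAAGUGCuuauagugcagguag
mmu-miR-19b-3p: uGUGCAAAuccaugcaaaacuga
mmu-miR-92a-3p: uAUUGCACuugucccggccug
The first of these lies at 115043684 to 115043706, miR-20a-5p at 115044183 to 115044205, miR-19b-3p at 115044358 to 115044380 and miR-92a-3p at 115044476 to 115044496. Both miR-19b-3p and miR-92a-3p are also made from a second hairpin with the same mature sequence in the Mir106a-363 cluster on the minus strand of chromosome X (52741991 to 52742013 and 52741854 to 52741874), and a read of either cannot be placed at 1 of the 2 loci. Between miR-17-5p and miR-20a-5p, 2 of 23 bases differ. The miRNAs with the seed of miR-92a-3p that were counted most often are the following.
mmu-miR-25-3p: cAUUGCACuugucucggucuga
mmu-miR-92b-3p: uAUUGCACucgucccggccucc
Over the 21 bases compared, miR-25-3p differs from miR-92a-3p at 3 and miR-92b-3p at 2. How reads that match several of these miRNAs were counted is not given in the sources used here, so values within a family are uncertain where reads could be split.

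The miRNA counts of a library summed to between 452021 and 7565362, and their share in the library total was 3.28% ± 1.55 in CON, 24.7% ± 4.96 in FAC, 12.6% ± 7.16 in DFO and 11.97% ± 2.69 in VE (SD, n = 3 each). Levels are therefore given as CPM, the counts scaled to the miRNA counts of a library after TMM normalization, and beside it as RPM, the deposited values scaled to a library total that exceeds the miRNA counts. A level of 3 counts was taken as the floor of detection of a library, and it lay between 0.351 and 7.90 CPM. Replicates varied strongly, with a common biological coefficient of variation of 1.57 in edgeR. Of the marker miRNAs fixed for granulosa cells, which other cells also express, miR-21a-5p and miR-224-5p had counts in all 12 libraries, and the summed level of the 6 of 8 granulosa markers with an entry lay between 954 and 3600 CPM. Most of this sum was miR-21a-5p, at 926 to 2910 CPM, while miR-503-5p was over 3 counts in 10 libraries, miR-212-5p in 5, miR-132-3p in 4 and miR-212-3p in 2.

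The cluster was represented in these exosomes almost wholly by miR-92a-3p, which had a count in all 12 libraries and 14500 counts in total. The other members were at or near 0 in most libraries: miR-20a-5p had 351 counts in total, miR-19b-3p 112 and miR-17-5p 71. No count of these 3 was found in any CON library. As shares of the counts of the 4 members, miR-92a-3p made up 100% in the CON group, 97.2% ± 2.56 in FAC, 91.2% ± 7.59 in DFO and 97.7% ± 4.04 in VE (SD, n = 3 each). Its lowest share in a single library was 85.5% in DFO replicate 1 (95% exact interval 82.7% to 87.9%), followed by 88.3% in DFO replicate 3 (86.2% to 90.1%). In CON replicate 3 only 12 member counts were found, and the exact interval of that share reached down to 73.5%. Such intervals describe the counting error alone, because reads of an amplified library need not be separate molecules. All members together were 0.0427% ± 0.0356 of the miRNA counts in CON, 0.0364% ± 0.00945 in FAC, 0.0383% ± 0.0370 in DFO and 0.0631% ± 0.0214 in VE (SD, n = 3 each).

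**Figure D1:**
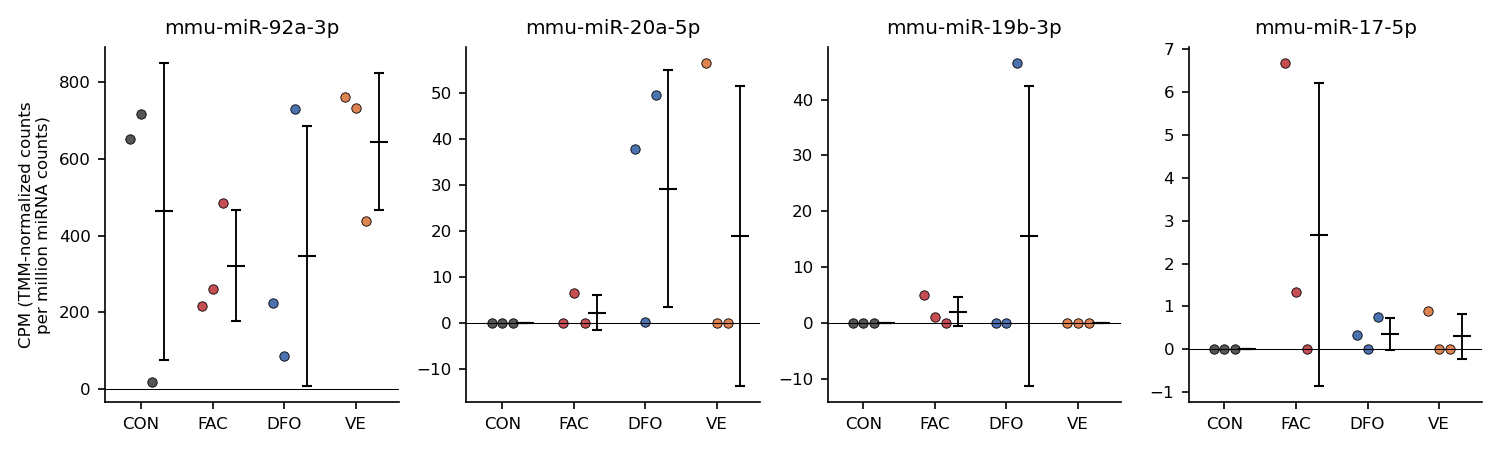
Normalized level (CPM, scaled to the miRNA counts) of the 4 members in each library, 1 panel per member with its own axis, by group. Points are libraries in replicate order, and the bar beside them is the mean ± SD (n = 3). The level of miR-92a-3p reached 762 CPM, whereas no library of the other members was above 56.5 CPM and all 3 were at 0 in CON.

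The level of miR-92a-3p, a member of the miR-92 family known from blood vessels and red cell precursors, was 654, 719 and 18.9 CPM in CON replicates 1 to 3, and 218, 262 and 487 CPM in those of FAC. Among the DFO replicates it was 225, 85.2 and 730 CPM, and among those of VE 762, 734 and 439 CPM. The ranges of all 4 groups overlapped, and the lowest library was a CON library with 12 counts while the other CON libraries were among the 5 highest. By their means the order was VE (645 ± 179 CPM), CON (464 ± 387), DFO (346 ± 339) and FAC (322 ± 144; SD, n = 3 each), and no neighbours in this order differed beyond their spread. The level varied 40.4-fold between the lowest and the highest library. By its median over the 12 libraries, 463 CPM, the miRNA ranked 63 among the 637 entries.

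Whether the group levels differed was tested with edgeR's quasi-likelihood test on the 547 entries that reached 10 counts summed over the libraries, all 4 groups in 1 fit. An entry was called at a fold change of at least 1.5 with an unadjusted p under 0.05, the threshold used in the study, and the Benjamini-Hochberg adjusted p over the 547 entries is given beside it. Iron loading was addressed by FAC against CON, where miR-92a-3p had a log2 fold change of -0.52 (SE 0.89, 95% interval -2.27 to 1.22, edgeR adjusted p = 0.761). The agents given with iron were addressed by FAC against DFO, at -0.10 (SE 0.89, interval -1.84 to 1.64, adjusted p = 0.979 in edgeR), and by FAC against VE, at -1.001 (SE 0.90, interval -2.76 to 0.75, adjusted p = 0.552 in edgeR). Against CON, it was -0.42 in DFO (SE 0.89, interval -2.17 to 1.32, edgeR adjusted p = 0.969) and 0.48 in VE (SE 0.89, interval -1.27 to 2.22, edgeR adjusted p = 0.981). As a fold, the interval between FAC and CON ran from 0.207 to 2.33, which leaves room for changes of several fold in the lower direction. The test over all 4 groups gave an adjusted p = 0.747 in edgeR.

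Single libraries turned the direction of these values. Without CON replicate 2, the log2 fold change of miR-92a-3p was 0.037 in FAC against CON and 0.049 in DFO against CON. Without CON replicate 3, that in VE against CON was -0.10, and without DFO replicate 2, that in DFO against CON was 0.041. The value in FAC against DFO was 1.06 when DFO replicate 3 was left out, 0.11 when FAC replicate 1 and 0.02 when FAC replicate 2 was left out. No fit that left out a library called miR-92a-3p in any comparison.

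Relative to the library total, the picture of miR-92a-3p was different. Its level was 32.9, 12.1 and 0.486 RPM in CON replicates 1 to 3, 74.9, 81.4 and 97.7 RPM in FAC, 26.7, 19.3 and 39.2 RPM in DFO and 69.7, 83.0 and 57.6 RPM in VE. All FAC libraries lay above all CON and all DFO libraries, and all VE libraries lay above all CON libraries. Of the 547 entries, 31.4% were higher in FAC than in CON without overlap on this scale, 16.1% higher in FAC than in DFO and 21.6% higher in VE than in CON. With limma on log2(RPM + 1), the log2 fold change was 3.29 in FAC against CON (interval 1.34 to 5.24, adjusted p = 0.0202) and 3.02 in VE against CON (interval 1.06 to 4.97, adjusted p = 0.0767). These are differences of log2(RPM + 1), which understates the change of low values. The miRNA share of the library total moved with these values, and the share of entries called by limma was 35.6% in FAC against CON, 18.8% in VE against CON, 22.7% in FAC against DFO, 20.7% in FAC against VE and 16.8% in DFO against CON. An adjusted p under 0.05 was reached in FAC against CON by 23.4% of the entries. In the comparisons of FAC with DFO, FAC with VE and DFO with CON, limma called none of the 4 members, and miR-92a-3p had log2 fold changes of 1.59 (adjusted p = 0.314), 0.28 (adjusted p = 0.893) and 1.70 (adjusted p = 0.389). On the counts, edgeR called 52 entries in FAC against CON, 13 of them higher in FAC, whereas all 195 called by limma on RPM were higher. Scaling edgeR to the library totals moved the median log2 fold change of all entries in FAC against CON from 1.38 to 4.35, and that of miR-92a-3p to 2.48 (interval 0.28 to 4.68, adjusted p = 0.114 in edgeR).

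**Figure D2:**
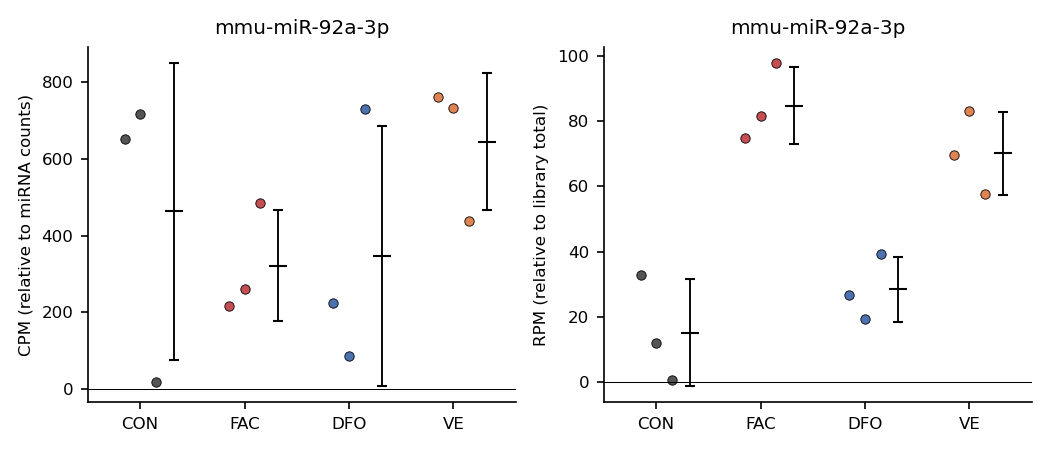
Level of mmu-miR-92a-3p in each library by group, in CPM relative to the miRNA counts (left) and in RPM relative to the library total (right). Points are libraries in replicate order, and bars are the mean ± SD (n = 3). The groups overlap in CPM, whereas in RPM the FAC libraries (74.9 to 97.7) lie above all CON libraries (0.486 to 32.9).

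**Figure D3:**
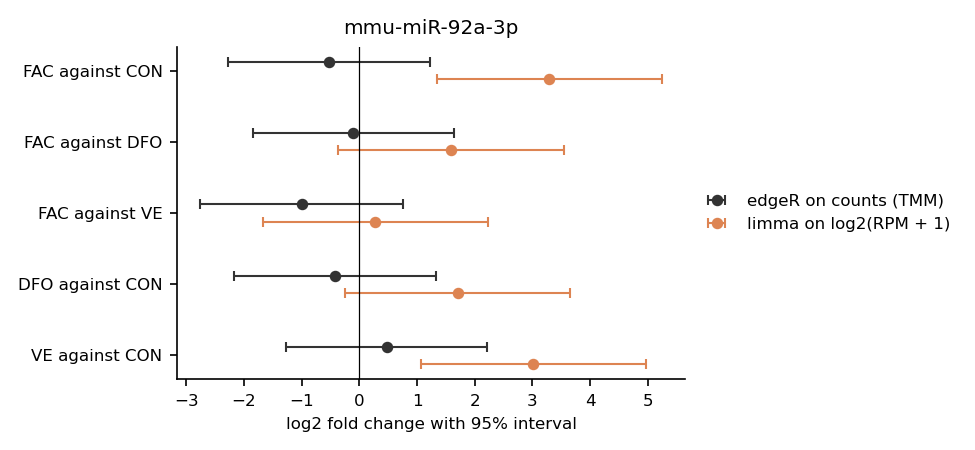
Log2 fold change of mmu-miR-92a-3p with its 95% interval in 5 comparisons, from edgeR on counts (dark) and from limma on log2(RPM + 1) (orange). All intervals from the counts include 0, and those from RPM do not include 0 in FAC against CON and VE against CON.

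The miR-17 family member miR-20a-5p had 110, 1 and 66 counts in DFO replicates 1 to 3 (37.9, 0.179 and 49.5 CPM), 125 counts in VE replicate 1 (56.5 CPM) and 49 counts in FAC replicate 2 (6.54 CPM). It had no count in the other VE and FAC libraries or in any CON library. It was thus over the floor in 4 of 12 libraries, of which 2 were DFO libraries. In edgeR it was the only member called, higher in DFO against CON and in VE against CON. Its DFO mean (29.2 ± 25.8 CPM, SD, n = 3) was 5.81-fold the CON floor of 5.02 CPM (adjusted p = 0.625 in edgeR, fold interval from 1.74). The VE mean (18.8 ± 32.6 CPM, SD, n = 3), from 1 library, was 3.75-fold that floor (adjusted p = 0.460 in edgeR, fold interval from 1.21). The floor of a group is the mean over its libraries of 3 counts each. Read against the background, 1 of 4 members was called in each of these comparisons, where 7.68% and 10.4% of all entries were called, and at an adjusted p under 0.05 none of the members but 0.548% and 2.01% of all entries.

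Both calls of miR-20a-5p rest on the unadjusted p and were lost with single libraries left out of the edgeR fit. DESeq2 also called both (adjusted p = 6.14e-05 and adjusted p = 4.2e-05). With filterByExpr, with only the 2 compared groups or in either limma fit, miR-20a-5p was called in neither comparison. In DFO against CON the threshold was not passed without DFO replicate 1, without DFO replicate 3 or without any 1 of the CON libraries, with adjusted p-values of 0.600 to 0.865. In VE against CON the call rested on VE replicate 1, without which no count was left in either group. That call was also lost without FAC replicate 2, DFO replicate 1, DFO replicate 3 or any 1 of the CON libraries, with adjusted p-values of 0.460 to 0.672. With the replicate block, neither comparison called it (adjusted p = 1 in DFO against CON and adjusted p = 0.916 in VE against CON in edgeR).

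Its family partner miR-17-5p, whose seed is the same, was seen in other libraries. It had 57 counts in FAC replicate 1 (6.68 CPM) and 10 in FAC replicate 2 (1.34 CPM), and 1 or 2 counts in DFO replicates 1 and 3 and VE replicate 1. It was over 3 counts in 2 of 12 libraries, both of the FAC group. No comparison called it in edgeR, with an adjusted p = 0.607 in FAC against CON, adjusted p = 0.712 in FAC against DFO and adjusted p = 0.737 in FAC against VE. Its mean in FAC, 2.67 ± 3.53 CPM (SD, n = 3), was below the CON group floor of 5.02 CPM, and FAC replicate 1 was above it. Limma with a pseudocount of 0.1 RPM called it higher in FAC against CON, with a log2 difference of 2.32 (adjusted p = 0.128).

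The miR-19 family was represented by miR-19b-3p. It had 62 counts in DFO replicate 3 (46.5 CPM), 42 in FAC replicate 1 (4.92 CPM) and 8 in FAC replicate 2 (1.07 CPM), and no count in the other 9 libraries. In DFO against CON its DFO mean was 3.09-fold the CON floor, on the strength of 1 library (adjusted p = 0.658 in edgeR, fold interval from 0.363). In FAC against VE its FAC mean was 1.77-fold the VE floor of 1.13 CPM (adjusted p = 0.521 in edgeR, fold interval from 0.325). Only FAC replicate 1 was above that floor. In FAC against CON its mean of 1.996 CPM in FAC was under the CON floor (adjusted p = 0.607 in edgeR). In FAC against DFO the log2 fold change was -2.93 (SE 3.56, adjusted p = 0.653 in edgeR) and 5.88 without DFO replicate 3. Between VE and CON, both at 0, no fold can be given.

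In the comparisons with FAC as the first group, 0 of the 4 members were called, where 9.51% of all entries were called in FAC against CON, 12.2% in FAC against DFO and 9.32% in FAC against VE. At an adjusted p under 0.05 these shares of all entries were 0.183%, 0.914% and 0.366%. At an unadjusted p under 0.05 none of the members was found by edgeR in these 3 comparisons either. With DESeq2, miR-20a-5p was called in FAC against CON (adjusted p = 0.00233), where a single FAC library held all of its counts. Over all 4 groups, 0 of 4 members had a p under 0.05 in edgeR (18.5% of all entries did), with adjusted p-values of 0.369 for miR-20a-5p, 0.328 for miR-19b-3p and 0.689 for miR-17-5p.

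The counts of the 3 sparse members were either near 0 or far above it. Of their 36 values, 23 were 0, 4 were of 1 to 3 counts and 9 were of 8 or more counts. Among entries with 10 to 500 counts, a smoothed distribution of log2 counts peaked in each library between 20.2 and 198 counts. This peak is called the lowest mode here. Of the 9 values over 3 counts, 6 lay between 0.5 and 1.5 of the lowest mode of their library and 1 above it, miR-20a-5p in FAC replicate 2 at 2.42 modes. With counts divided by the mode, miR-20a-5p was not called in edgeR in DFO against CON or VE against CON (adjusted p = 1 in both). Whether the mode plays a part in these values was not tested.

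**Figure D4:**
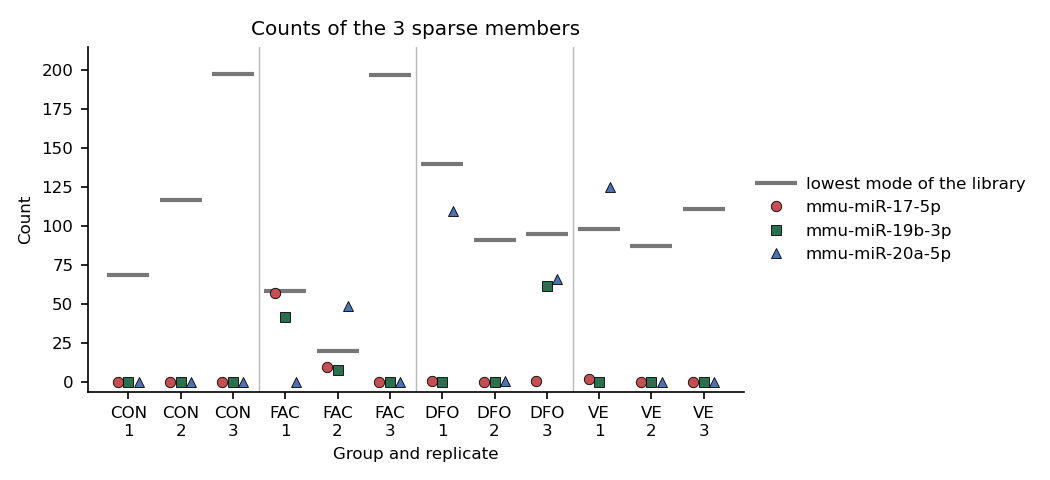
Counts of mmu-miR-17-5p, mmu-miR-19b-3p and mmu-miR-20a-5p in the 12 libraries, with the lowest mode of each library, sought between 10 and 500 counts, as a grey bar. Of the 36 values, 23 are at 0 and 9 are over 3 counts, and 6 of these 9 lie between 0.5 and 1.5 times the grey bar, such as 57 counts of miR-17-5p in FAC replicate 1 with a mode of 58.7.

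Of the 5 other arms of the 6 hairpins, 1 had an entry, mmu-miR-18a-3p, the arm opposite to the listed miR-18a-5p. It had 70 counts in CON replicate 1 (57.3 CPM), 87 in VE replicate 1 (39.3 CPM), 8 in FAC replicate 2 and 2 in VE replicate 3, and none in any DFO library. The threshold was passed in DFO against CON, lower in DFO (adjusted p = 0.602 in edgeR, fold interval up to 0.519). The CON mean of 19.1 ± 33.1 CPM (SD, n = 3) came from 1 library and was 15.0-fold the DFO floor of 1.27 CPM. Without CON replicate 1, or without any 1 of the DFO libraries, miR-18a-3p was not called. It was called in none of the other comparisons in edgeR.

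The members share their seeds with miRNAs made elsewhere in the genome, and miR-92a-3p was not the main carrier of its seed. The Mir106b-25 member miR-25-3p, with 503706 counts in total, lay above it in all 12 libraries, by 11.8-fold to 191-fold with a median of 25.8-fold. Its level was 10239, 8454 and 3612 CPM in CON replicates 1 to 3, 17285, 13163 and 14645 in FAC, 3560, 5370 and 9882 in DFO and 16345, 12485 and 13686 in VE. All FAC libraries were above all CON and all DFO libraries, and all VE libraries were so too. The share of all entries that separate in this way in CPM was not counted. In edgeR, miR-25-3p was called in FAC against CON, with a log2 fold change of 1.02 (SE 0.49, adjusted p = 0.475 in edgeR). It was also called in FAC against DFO, at 1.26 (SE 0.50, adjusted p = 0.192 in edgeR), and neither call passed the adjustment there. In FAC against CON the adjusted p was 2.6e-05 with library read totals in edgeR (log2 fold change 4.11, beside a median of 4.35 over all entries). In the limma fits on RPM it was 0.00166 and 0.00801. With a pseudocount of 1 RPM, 23.4% of all entries were under 0.05 in limma. The remaining alternatives gave 0.0518 (edgeR with counts divided by the lowest mode) to 0.672 (edgeR with the replicate block). In FAC against DFO it was 0.0238 in DESeq2, 0.0147 in edgeR with counts divided by the lowest mode, 0.0274 with 10 counts in every library, 0.0280 with library read totals, and 0.0349 in limma with a pseudocount of 1 RPM. The remaining alternatives gave 0.0988 (edgeR with total miRNA counts) to 0.260 (edgeR with the replicate block) in FAC against DFO. The former call was lost without CON replicate 1 or 3, FAC replicate 1 or 2, or VE replicate 2 or 3, with log2 fold changes from 0.82 to 1.26 over all fits that left out a library. The latter was lost without DFO replicate 1, with values from 0.98 to 1.75 over these fits.

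The ratio of miR-25-3p to miR-92a-3p, which needs no scaling between libraries, had a median of 15.7 in CON, 50.2 in FAC, 15.8 in DFO and 21.5 in VE. It overlapped between FAC (30.1 to 79.3) and each of the other groups (11.8 to 191 in CON, 13.5 to 63.1 in DFO and 17.01 to 31.2 in VE). The third abundant carrier of the seed, miR-92b-3p, had 9270 counts. Its level was above that of miR-92a-3p in CON replicate 3, DFO replicate 1 and DFO replicate 2 and below it in the other 9 libraries. The ratio of miR-92b-3p to miR-92a-3p was 19.5 in CON replicate 3, 4.06 and 5.71 in these DFO libraries and at most 0.495 in the others. In FAC against DFO, miR-92b-3p was called at a log2 fold change of -2.72 (SE 1.08, adjusted p = 0.192 in edgeR), but not without FAC replicate 1 or DFO replicate 1. Its adjusted p was 0.0155 in DESeq2 and 0.00345 in edgeR with counts divided by the lowest mode. In the other alternatives it ran from 0.0549 (edgeR with only the 2 compared groups) to 0.472 (limma with 0.1 RPM).

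**Figure D5:**
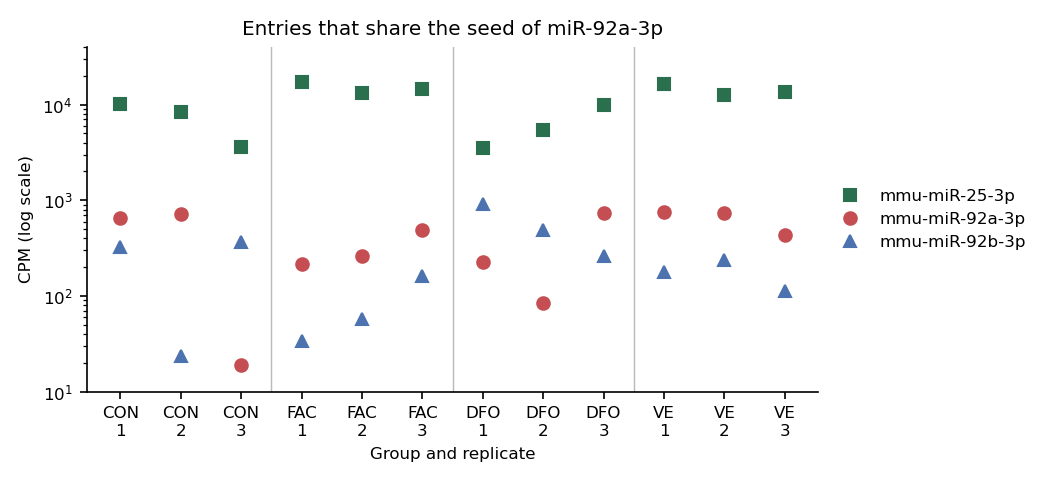
Level in CPM (log scale) of the 3 most abundant miRNAs with the seed of mmu-miR-92a-3p in each of the 12 libraries, by group and replicate. The squares of miR-25-3p lie above the other symbols in every library, and the triangles of miR-92b-3p lie above the circles of miR-92a-3p in 3 of 12.

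Of the 10 seed partners listed for this comparison, which leave out some miRNAs with a member's seed that have no entry, 9 had an entry and 7 were tested. In FAC against CON, miR-25-3p was called higher and miR-363-3p lower, in FAC against DFO miR-25-3p higher and miR-92b-3p lower, and none in FAC against VE. In DFO against CON and in VE against CON, 1 was called, lower. The share called over all entries tested was 9.51%, 12.2%, 9.32%, 7.68% and 10.4% in these comparisons, in the same order. Their median log2 fold change in FAC against CON was 1.02, beside 1.38 over all entries tested. The seed of miR-17-5p and miR-20a-5p was carried mainly by miR-93-5p of the Mir106b-25 cluster, with 1644 counts in 10 libraries and a median of 35.7 CPM, while miR-106b-5p had 70 counts, miR-20b-5p 44 and miR-106a-5p 1.

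In the Mir106a-363 cluster on chromosome X, 4 of the 10 own arms had an entry and 2 were tested. The most abundant, miR-363-3p, was called lower in FAC against CON (log2 fold change -7.37, SE 2.20, adjusted p = 0.0762 in edgeR), and also lower than CON in DFO (log2 fold change -5.55) and in VE (-5.36). Its CON level came from CON replicate 3, with 371 counts or 583 CPM, while CON replicates 1 and 2 had none, and without it no call was left and the log2 fold changes were 5.22, 6.72 and 7.02. In VE against CON the direction also turned with the replicate block (0.82) and in limma on log2(RPM + 0.1) (0.18). That library was the one with the lowest level of miR-92a-3p. The other tested arm, miR-20b-5p, was called in none of the 5 comparisons in edgeR.

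In the Mir106b-25 cluster, all 6 arms had an entry and were tested. In FAC against CON, miR-25-3p was called higher and miR-25-5p lower, at a log2 fold change of -3.57 (SE 1.4996, adjusted p = 0.328 in edgeR). That of miR-25-5p was not called without CON replicate 3, FAC replicate 1 or FAC replicate 2, and limma turned its direction, to 0.38 with a pseudocount of 1 RPM and 1.18 with a pseudocount of 0.1 RPM. One arm was called higher in FAC against DFO and 1 in FAC against VE, none in DFO against CON and 1 lower in VE against CON. Over all entries tested, the share called was 9.51% in FAC against CON, 12.2% in FAC against DFO, 9.32% in FAC against VE, 7.68% in DFO against CON and 10.4% in VE against CON. An adjusted p under 0.05 was found for 1 arm in FAC against VE and 1 in VE against CON, miR-25-5p in both, beside 0.366% and 2.01% of all entries tested. This arm was at 0 counts in the 3 VE libraries and varied widely elsewhere, at 281 ± 270 CPM in CON and 23.7 ± 22.8 CPM in FAC (SD, n = 3 each). The FAC mean was 20.9-fold the floor of the VE group (adjusted p = 0.00453 in edgeR, FAC against VE). For CON the mean was 249-fold that floor (adjusted p = 1.88e-05 in edgeR, VE against CON). The adjusted p in FAC against VE rose to 0.331 with filterByExpr, 0.225 with only the 2 compared groups, 0.654 with counts divided by the lowest mode, 0.222 in limma with a pseudocount of 1 RPM, 0.193 in limma with 0.1 RPM, and up to 0.1245 in edgeR with a library left out. In VE against CON it rose to 0.849 in edgeR with counts divided by the lowest mode and to 0.345 and 0.224 in the limma fits. The cluster was far more abundant than Mir17-92, with a median of 11362 CPM for miR-25-3p and 719 CPM for miR-106b-3p, beside 463 CPM for miR-92a-3p. These levels compare mature miRNAs of 21 to 23 bases and were not scaled to length.

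Among the marker miRNAs of red cells, blood cells in which miR-92a-3p is also known to be abundant, miR-451a was 804, 653 and 50.3 CPM in CON replicates 1 to 3 and 383, 335 and 643 CPM in FAC. It was 8.61, 75.7 and 646 CPM in DFO and 662, 779 and 3798 CPM in VE. The lowest CON library and the highest DFO and FAC libraries were the same for miR-451a and miR-92a-3p. The highest CON library and the lowest DFO and FAC libraries differed. Among the VE libraries, replicate 3 was the highest for miR-451a and the lowest for miR-92a-3p. Over the 12 libraries, Pearson's r between miR-451a and the members' summed level in log2 CPM was 0.62 and Spearman's rho 0.68, and r was 0.49 without CON replicate 3 and DFO replicate 2, the 2 libraries farthest from the median. The joined entry of miR-486a-5p and miR-486b-5p, further red cell markers, had an r of 0.55, a rho of 0.71 and an r of 0.76 without the same 2 libraries, and lay between 6903 and 168936 CPM. In edgeR it was called higher in VE than in FAC (adjusted p = 0.00453) and than in CON (adjusted p = 0.00821). These rose to 0.502 (edgeR with library read totals) and 0.415 (DESeq2). The calls of miR-451a, also higher in VE, had an adjusted p = 0.444 and adjusted p = 0.460 in edgeR. Of the 5 red cell markers, 3 entries were found, with a summed level of 29612 to 65682 CPM in CON, 7286 to 107052 in FAC, 15426 to 85823 in DFO and 89348 to 169598 in VE, and the defining miR-144-3p had 1 count in 12 libraries. For leukocytes, all 4 markers had an entry, with summed levels of 18.4 to 315 CPM in CON, 5.86 to 98.5 in FAC, 17.2 to 367 in DFO and 1.81 to 228 in VE, while the defining miR-142a-3p and miR-223-3p had 1 and 17 counts in total. The part of red cell miRNAs in the level of miR-92a-3p was not tested.

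By the pattern over the 12 libraries, the members' summed level, which is nearly that of miR-92a-3p, was most like miR-708-3p (r = 0.92, rho = 0.62), miR-574-3p (r = 0.91, rho = 0.84) and miR-127-3p (r = 0.88, rho = 0.71) among 159 entries with at least 10 counts in at least 9 libraries. The median r over these entries was 0.09. All 3 had their lowest level in CON replicate 3, at 23.6, 29.9 and 36.2 CPM. Without CON replicate 3 and DFO replicate 2, r fell to 0.56, 0.65 and 0.62. These correlations share the libraries and their scaling and are descriptions. For miR-25-3p, r was 0.65 and 0.15 without the same 2 libraries, and for miR-92b-3p it was -0.28 and 0.14 without them.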

How the data were processed

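Small RNA of exosomes was sequenced by the authors on an Illumina HiSeq instrument with reads of 15 to 41 bp. The deposited counts are whole reads per miRNA entry, not normalized, and the deposited RPM values are the same counts scaled to a library total of 22631206 to 24845945 reads, which the authors do not define. The aligner, miRNA database and treatment of reads with several matches are not given in the sources used here. The submitters' processing notes name mm9. Groups came from the sample labels. Counts were tested with edgeR 4.0.16 in R 4.3.3 (TMM, quasi-likelihood, 4 groups in 1 fit, 547 entries with at least 10 counts). The script was first run on simulated counts, with a pass rule only at a spread well below that of these data. How the test performs at the spread of these data is not reported here. RPM values were tested with limma 3.58.1 on log2(RPM + 1), and DESeq2 1.42.0 was an alternative. SE is the log2 fold change divided by the root of F. The members, lists, mode settings and rule for the genes named were chosen with earlier results of these data known. By that rule, every member is given with its value in each library, other arms with values, each list with its counts, its most abundant entry and those called in FAC against CON, and the 3 entries with the highest r. Same-numbered libraries did not deviate together (mean r 0.0035 over 18 pairs, -0.0017 over 36 other pairs), so the replicate block is an alternative only. Any 2 libraries differed beyond sampling noise, at a chi-square of at least 101.9 for each degree of freedom, and none was counted as a repeat.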

Additional observations from a re-analysis of the deposited data

How the results depend on the processing

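The number of members called changed with the processing in 3 of the 5 comparisons, and in FAC against DFO only with a library left out. In FAC against CON (0 called) it was 1 with library read totals, DESeq2 or limma on log2(RPM + 1) and 2 with limma on log2(RPM + 0.1). In DFO against CON and VE against CON (1 each) it was 0 with filterByExpr, the replicate block, only the 2 compared groups, or counts divided by the lowest mode. It was necessarily 0 for miR-20a-5p with 10 counts in every library, because that filter left this entry untested. The number was 0 in DFO against CON with either limma fit and 2 in VE against CON with library read totals. In VE against CON the 1 member called by either limma fit was miR-92a-3p. With each library left out, it ranged from 0 to 1 in FAC against DFO (1 without FAC replicate 2), DFO against CON and VE against CON, and no library changed it in FAC against CON or FAC against VE. The share of the members was 0.00152% in CON, 0.00869% in FAC, 0.00317% in DFO and 0.00719% in VE relative to the library total.

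Of 386 refitted log2 fold changes of members, 330 kept their direction and call, 27 reversed, 23 lost and 6 gained a call in the same direction. Of those that reversed, 3 also gained a call, all of miR-92a-3p in FAC against CON. For miR-92a-3p, library read totals, limma with a pseudocount of 1 and limma with 0.1 gave 2.48, 3.29 and 3.77 in FAC against CON, 1.58, 1.59 and 1.62 in FAC against DFO, 0.27, 0.28 and 0.28 in FAC against VE, and 0.91, 1.70 and 2.15 in DFO against CON. In FAC against DFO it was 0.064 with total miRNA counts, 0.043 with only the 2 compared groups and 0.51 with counts divided by the mode. For miR-19b-3p in FAC against DFO, it was 0.95 with the replicate block, 0.012 and 0.52 with the limma fits, and from -4.74 to 5.88 with each library left out. For miR-20a-5p in FAC against VE it ranged from -8.73 to 5.97 (without VE replicate 1). Without single libraries, miR-92a-3p ranged from -1.01 to 0.037 in FAC against CON, -0.57 to 1.06 in FAC against DFO, -1.58 to 0.049 in DFO against CON and -0.10 to 0.95 in VE against CON. The cause was not tested.

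The replicate numbers share no stated origin, and the block moved the calls over all entries from 52 to 39 in FAC against CON, from 42 to 23 in DFO against CON and from 57 to 36 in VE against CON. The group floor was highest in CON, at 5.02 CPM, which is above the FAC means of the sparse members. The part of depth in their detection was not tested.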
